A study of Mus musculus with 15 samples.

Results

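The 9 genes described here are Cps1, Otc, Ass1, Asl and Arg1, which encode the enzymes of the urea cycle, and Tat, Tdo2, Agxt and Sds, which encode enzymes that break down amino acids. They were chosen by gene symbol, and each of the 9 symbols gave 1 locus among the 23589 named loci of the table. Libraries for RNA-Seq came from male C57BL/6 mice and from 5 tissues, the liver, the epididymal fat, the mucosa of the colon, and the hypothalamus and hippocampus of the brain. The AL mice ate ad libitum and were 5 months of age. The DR mice received 60% of that food for 1 month from 4 months of age and were also 5 months of age. The DR-AL mice had the same month of DR and then 2 months of AL feeding, and were 7 months of age, so that diet and age cannot be told apart in DR-AL. No group carries a genetic change, and RNA of 5 mice was pooled into 1 library for each tissue and diet.

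With 1 library per group no difference below has a replicate check. The test used, a Z test on the square root of counts with a Benjamini-Hochberg adjustment over all genes of a tissue, compares libraries and not diets, and all intervals are 95% intervals that cover counting error only. A gene was called higher or lower where the adjusted p was under 0.05 and the log2 difference reached 0.32, the fold limit of the test. Levels are CPM, counts scaled to one common total on named loci, or FPKM where genes are compared with each other. The 15 libraries held 21767088 to 40500130 counts on named loci, with a median of 26554699. Of 10 hepatocyte markers, 9 were abundant in the liver libraries, where their sum was 41951 to 51844 CPM. The tenth, Alb, was listed at 0 in all 15 libraries, liver included, so its locus is no measure of hepatocyte RNA in this table. The 8 adipocyte markers summed to 28102 to 41248 CPM in the fat libraries and to 31.5 to 101 CPM in liver.

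Ammonia set free from amino acids is toxic, and hepatocytes turn it into urea. Cps1 and Otc carry out the mitochondrial steps, Ass1 and Asl build and split argininosuccinate in the cytosol, and Arg1 releases urea. Before that, enzymes such as Tat (tyrosine), Tdo2 (tryptophan), Agxt (glyoxylate and alanine) and Sds (serine) remove amino groups or open the rings of single amino acids. In the liver these genes are known to respond to fasting, dietary protein, glucocorticoids and glucagon.

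The 9 genes were among the most abundant transcripts of the liver. Together they took 1.42% of the counts on named loci in AL liver, 1.53% in DR liver and 1.78% in DR-AL liver. By counts Cps1 ranked 31 to 41 among all named genes over the 3 liver libraries, and Sds, the least abundant of the 9, ranked 496 to 898. Per transcript length the order was different. On the FPKM scale Ass1 had the highest median over the 3 liver libraries, 3673 (3515 to 4540), followed by Arg1 at 3267 (2557 to 5334), Cps1 at 2426 (2258 to 2433) and Tdo2 at 2340 (1542 to 2857). Tat was at 1538, Asl at 1174, Otc at 464, Sds at 458 and Agxt at 404. The ranges of Ass1 and Arg1 overlapped, as did those of Cps1 and Tdo2 and those of Otc, Sds and Agxt, and the order within each of these sets differed between libraries. Tdo2 was above Tat in all 3, by little in DR (1542 against 1538). Arg1 led only in the DR-AL library, and Ass1 led in AL and DR.

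**Figure D1:**
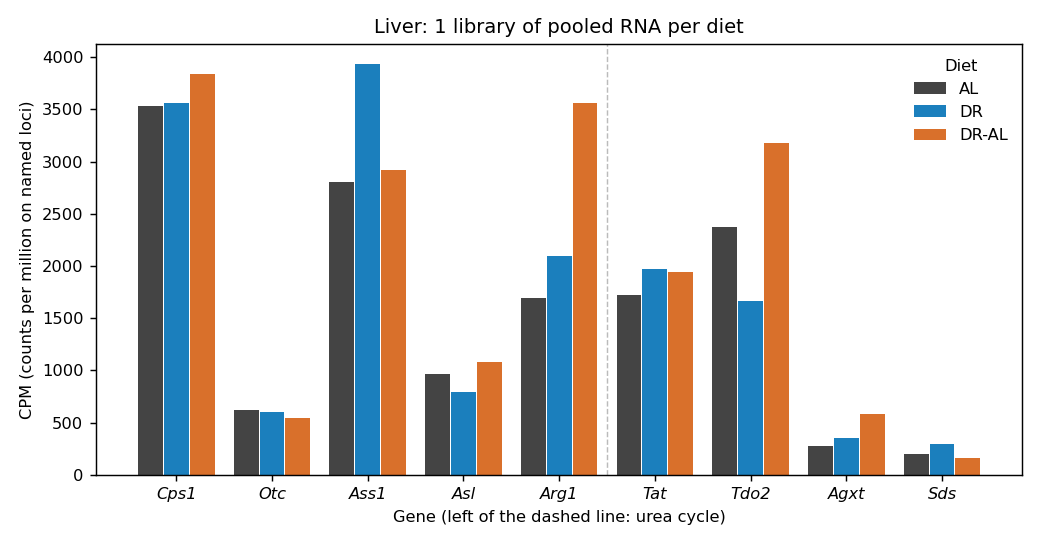
Level of each gene in the liver (vertical axis, CPM on a linear scale from 0) in the AL, DR and DR-AL library, with 1 bar per library and no error bar because each group is 1 library. The bars of Cps1, Otc and Tat were nearly level across diets, Ass1 and Sds were highest in DR, and Arg1, Tdo2 and Agxt were highest in DR-AL.

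In the liver, DR was set against AL to ask what 1 month of restriction did to these genes. Ass1, Agxt and Sds were higher in the DR library and Tdo2 was lower, and the other 5 were not called. That is 4 of 9 called, beside 28.0% of all 17408 genes tested in the liver and 37.4% of the 3040 genes whose mean count was 1000 or more, as it was for all 9. DR-AL was set against AL to ask what was seen after 2 months of AL feeding, and Arg1, Agxt and Tdo2 were higher, 3 of 9, with none lower. The share called among all genes was 30.9%, and 41.9% among those whose mean count was 1000 or more. Between the DR-AL and DR libraries, Asl, Arg1, Tdo2 and Agxt were higher in DR-AL and Ass1 and Sds lower, 6 of 9 called beside 40.8% of all genes and 57.5% of the abundant ones. In none of the 3 comparisons do these counts set the 9 genes apart from other abundant genes. Each pair of comparisons shares a library, so the values are given side by side and not as separate evidence. In bulk RNA, fewer cells of a type and less RNA per cell cannot be told apart.

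Cps1, carbamoyl phosphate synthetase and the entry to the cycle, stood at 3529 CPM under AL, 3565 under DR and 3840 under DR-AL liver. The 3 libraries lay close together, with a ratio of 1.01 (1.00 to 1.02) for DR to AL, whose adjusted p was 0.0871, and 1.09 (1.08 to 1.10) for DR-AL to AL. Otc, ornithine transcarbamylase, stood at 618 CPM under AL, 599 under DR and 548 under DR-AL. DR was 0.970 times AL (0.948 to 0.993) and DR-AL 0.886 times AL (0.866 to 0.907), both inside the fold limit.

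Ass1, argininosuccinate synthase, stood at 2806 CPM under AL, 3931 under DR and 2922 under DR-AL liver. The DR library was the high one, at 1.40 times AL (1.39 to 1.41), and DR-AL lay within 1.04 times AL (1.03 to 1.05). Asl, argininosuccinate lyase and the next enzyme, was instead lowest in the DR library, at 967 CPM under AL, 792 under DR and 1079.5 under DR-AL. Both genes were slightly higher in DR-AL than in AL. Its DR to AL ratio of 0.819 (0.803 to 0.835) missed the fold limit, and DR-AL was 1.36 times DR (1.34 to 1.39) and was called. Counted within each library, where no scaling is needed, Asl had 0.344 counts for each count of Ass1 in AL (0.339 to 0.350), 0.201 in DR (0.198 to 0.205) and 0.369 in DR-AL (0.364 to 0.375). The genes of these consecutive steps thus did not keep 1 ratio across the 3 libraries.

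Arg1, arginase and the last step of the cycle, stood at 1689 CPM under AL, 2099 under DR and 3560 under DR-AL liver. DR was 1.24 times AL (1.23 to 1.26), just under the fold limit, and DR-AL was 2.11 times AL (2.08 to 2.13) and 1.70 times DR (1.68 to 1.72). Arg1 and Agxt had the largest of the 9 rises over AL in DR-AL. Within libraries, Arg1 had 0.602 counts for each count of Ass1 in AL, 0.534 in DR and 1.22 (1.21 to 1.23) in DR-AL, so the order of the pair by counts was opposite in DR-AL. The same ratio to Cps1 was 0.479, 0.589 and 0.927. Of the 5 urea cycle genes, 1 was called in DR against AL and 1 in DR-AL against AL, beside 28.0% and 30.9% of all genes. Among genes whose mean count was 1000 or more these shares were 37.4% and 41.9%. The medians of the 5 genes were 0.01 and 0.12 on the log2 scale.

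Tat, tyrosine aminotransferase, stood at 1725 CPM under AL, 1971 under DR and 1946 under DR-AL liver. The ratios to AL were 1.14 (1.13 to 1.16) and 1.13 (1.11 to 1.14), inside the fold limit, and Tat was called in none of the liver comparisons. Tdo2, tryptophan dioxygenase, which opens the ring of tryptophan, stood at 2375 CPM under AL, 1661 under DR and 3181 under DR-AL. It was 0.700 times AL in DR (0.690 to 0.709) and 1.34 times AL in DR-AL (1.33 to 1.35). Tdo2 was the 1 gene of the 9 that was called in opposite directions against AL, and DR-AL was 1.91 times DR (1.89 to 1.94). Within libraries Ass1 had 1.18 counts for each count of Tdo2 in AL (1.17 to 1.19), 2.37 in DR (2.34 to 2.40) and 0.919 in DR-AL (0.909 to 0.928).

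Agxt, alanine glyoxylate aminotransferase, which clears glyoxylate, stood at 279.8 CPM under AL, 356 under DR and 582 under DR-AL liver. It was the 1 gene called higher against AL in both, at 1.27 times AL in DR (1.23 to 1.31) and 2.08 times in DR-AL (2.02 to 2.14). The DR call lies close to the fold limit and was lost under 2 other scalings, where the log2 difference was 0.26 with DESeq size factors and 0.25 with TMM factors in place of 0.35. Sds, serine dehydratase, which makes pyruvate from serine, stood at 195 CPM under AL, 293 under DR and 163 under DR-AL. The log2 difference from AL was 0.58 in DR (0.53 to 0.64) and -0.26 in DR-AL (-0.32 to -0.20), which was not called, and the fall of 0.85 on the log2 scale from DR to DR-AL was the largest among the 9.

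**Figure D2:**
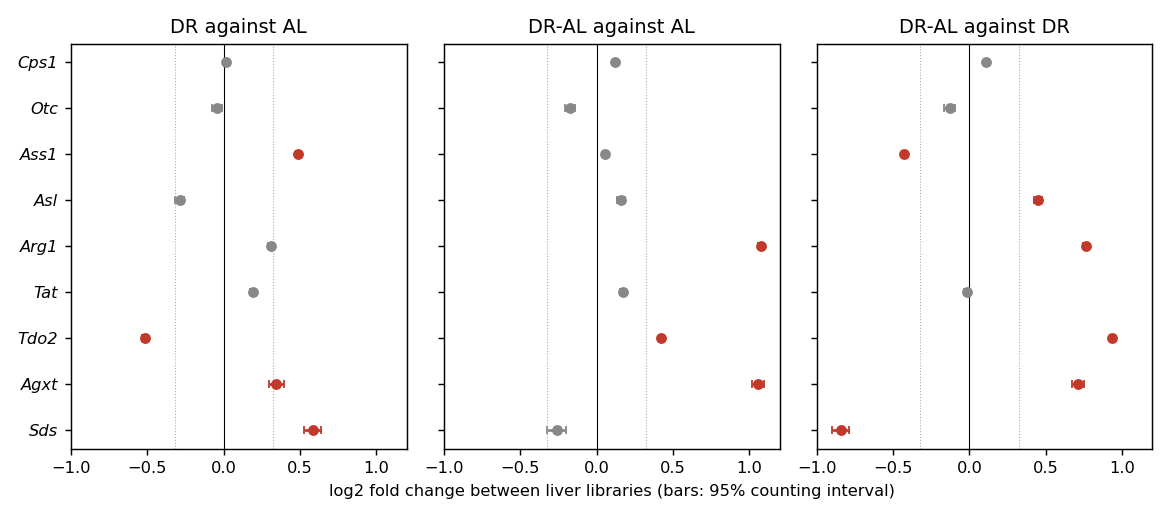
Log2 fold change of each gene (horizontal axis) between the liver libraries of the 3 comparisons, with 95% counting intervals as bars, called genes in red, others in grey and dotted lines at the fold limit (0.32). Tdo2 lies left of 0 for DR against AL (-0.52) and right of 0 for DR-AL against AL (0.42), and Arg1 (1.08) and Agxt (1.06) lie farthest right for DR-AL against AL.

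The scaling between libraries moved the split of calls. The median log2 difference of all genes tested in the liver was 0.10 for DR against AL and -0.11 for DR-AL against DR when totals were used. With DESeq size factors the 4 calls in DR against AL were 2 higher (Ass1 and Sds) and 2 lower (Tdo2 and Asl, now at -0.38). Over all genes, 64.5% of those called in DR against AL were higher with totals, and 50.6% with DESeq size factors. For DR-AL against DR these shares were 41.3% and 51.1%, and there Ass1, at -0.32, lost its call. By fold alone on the FPKM scale, Agxt (0.19) lay under the limit and Arg1 (0.35) and Asl (-0.39) beyond it in DR against AL, and Tdo2 (0.29) lay under it in DR-AL against AL.

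In the coordinates of the table, whose build the submitters' processing notes name as mm9, Ass1 lies at chr2:31325789-31376190 on the plus strand, Arg1 at chr10:24635012-24647401 on the minus strand and Agxt at chr1:95031852-95041998 on the plus strand. Tdo2 and Sds are listed with stretches 2.59 and 3.67 times as long as their RefSeq genes, and the same stretches are listed for a neighbour on the opposite strand, Ctso and Plbd2. The methods state that strand was kept in the alignment, and the neighbours had 1221 to 1855 counts (Ctso) and 1564 to 2104 counts (Plbd2) in the liver libraries, below the 36160 to 77911 of Tdo2 and the 3988 to 6367 of Sds. Whether reads of one entered the other was not tested.

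The promoters of 5 of the 9 genes are in the RefSeq table of GRCm38.p6 and were read as the 250 bases before the gene start. Those of Ass1 and Tdo2, which were called in opposite directions in DR liver, and of Agxt, called higher in both comparisons with AL, are shown beside that of Otc, which was called in none. Capitals mark matches to either of 2 motifs, read on both strands, and no matches of different motifs overlap. Only a part of the glucocorticoid receptor element, AGAACA, was searched, and it is present in 16.1% of the 32851 promoters of the table. The C/EBP site was searched as TTNNGNAA and is present in 36.8%.
Ass1, chr2:31470020-31470269, plus strand: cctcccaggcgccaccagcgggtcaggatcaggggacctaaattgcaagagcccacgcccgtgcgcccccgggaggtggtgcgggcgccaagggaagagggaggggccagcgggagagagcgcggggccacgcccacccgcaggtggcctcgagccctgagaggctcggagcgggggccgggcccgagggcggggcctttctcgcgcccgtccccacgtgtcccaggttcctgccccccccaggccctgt
Tdo2, chr3:81975729-81975978, minus strand: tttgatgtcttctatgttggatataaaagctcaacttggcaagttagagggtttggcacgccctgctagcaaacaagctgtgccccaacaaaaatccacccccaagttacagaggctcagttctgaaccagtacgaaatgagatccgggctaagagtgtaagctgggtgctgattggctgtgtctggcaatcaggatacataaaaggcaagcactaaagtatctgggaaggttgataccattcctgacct
Agxt, chr1:93134990-93135239, plus strand: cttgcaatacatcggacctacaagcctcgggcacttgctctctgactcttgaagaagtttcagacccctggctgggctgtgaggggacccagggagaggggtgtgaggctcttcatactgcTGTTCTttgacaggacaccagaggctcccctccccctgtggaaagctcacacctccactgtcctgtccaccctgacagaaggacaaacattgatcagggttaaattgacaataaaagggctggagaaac
Otc, chrX:10252055-10252304, plus strand: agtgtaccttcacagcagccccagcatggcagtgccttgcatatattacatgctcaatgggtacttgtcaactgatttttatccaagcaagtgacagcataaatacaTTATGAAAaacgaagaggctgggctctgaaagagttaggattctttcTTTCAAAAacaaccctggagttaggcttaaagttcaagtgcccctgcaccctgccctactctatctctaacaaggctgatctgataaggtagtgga
The Agxt window holds 1 match to that part of the glucocorticoid element, which starts 129 bases before the gene start. The full element was not searched. The Otc window holds 2 C/EBP sites, starting 143 and 96 bases before it. The Ass1 and Tdo2 windows hold neither motif, and TGACG, the core of the cAMP response element, found in 17.8% of promoters, was in none of the 5. The Tat window, not shown, holds 1 C/EBP site. A match is a description of letters and not a measured binding site.

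Other genes of amino acid breakdown were followed as 7 lists with 80 genes, of which 79 had counts in the liver and Tdh had none. In DR against AL, 15 were higher and 17 lower, 40.5% called beside 28.0% of all genes, and among the 73 whose mean count was 1000 or more, 41.1% were called beside 37.4%. In DR-AL against AL, 14 were higher and 28 lower, 53.2% beside 30.9%, or 52.1% beside 41.9% among abundant genes. In DR-AL against DR, 20 were higher and 36 lower, 70.9% beside 40.8%, or 71.2% beside 57.5% among abundant genes. The medians were -0.01, -0.14 and -0.14 on the log2 scale, beside 0.10, 0.00 and -0.11 over all genes. Over all genes whose mean count was 1000 or more they were 0.00, -0.02 and -0.01.

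The list for methionine and cysteine had the median farthest from 0 among the 7 lists in all 3 comparisons. Values in parentheses here and in the lists that follow are log2 differences. In DR against AL, 2 of its 8 genes were higher and 5 lower, with a median of -0.42, and in DR-AL against AL 5 were higher and none lower, with a median of 0.34. The shares called over all genes were 28.0% and 30.9%. Bhmt, which remethylates homocysteine, stood at 4578 CPM under AL, 4582 under DR and 11329 under DR-AL. Cth, cystathionine gamma-lyase, stood at 675, 473 and 1558 CPM, and Mat1a, which makes S-adenosylmethionine, at 5853, 3687 and 8001 CPM. Cth and Mat1a were thus lower than AL in DR and higher than AL in DR-AL, as Tdo2 was. In DR-AL against DR, Cth had the largest rise of the list (1.72) and Cdo1, which oxidises cysteine, the largest fall (-0.71).

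Among the genes that feed the urea cycle or handle ammonia, 1 of 10 was higher and 2 lower in DR against AL, near the 28.0% called over all genes. Slc25a13, the mitochondrial aspartate and glutamate carrier, was lower in DR (4800 counts against 8258, -0.60), and Car5a, which supplies bicarbonate to Cps1, was higher (0.33). In DR-AL against AL, 2 were higher and 3 lower, beside 30.9% of all genes called. Glul, which fixes ammonia in glutamine, fell by 1.18 from 33505 counts in AL to 14654 in DR-AL. Slc25a15, the ornithine carrier of the cycle, was higher in DR-AL than in DR (1.07), at 13478 counts against 5721 and 7814 in AL.

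Of 12 aminotransferases and transporters, 1 was higher and 3 lower in DR against AL, and 1 higher and 6 lower in DR-AL against AL. Beside the counts of this list and the next, 28.0% and 30.9% of all genes were called in these comparisons. Aadat, an aminotransferase of lysine and tryptophan breakdown, had the largest fall in DR (-1.12, 1969 counts against 4856). Gpt2, an alanine aminotransferase, was higher in DR-AL than in AL (0.37) and DR (0.76). In the list for phenylalanine and tyrosine, the pathway that Tat serves, 3 of 7 genes were higher and none lower in DR, and none higher and 3 lower in DR-AL. Qdpr, which regenerates the cofactor of phenylalanine hydroxylase, rose by 0.77 in DR, and Fah, the last enzyme of tyrosine breakdown, fell by 0.67 in DR-AL against AL.

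In the list for tryptophan, the pathway that Tdo2 opens, 2 of 7 were higher and 1 lower in DR, and 2 higher and 3 lower in DR-AL. For this list and those that follow here, the shares called over all genes were 28.0% in DR and 30.9% in DR-AL, each against AL. Haao, further down the pathway, was 0.91 higher in DR than in AL, where Tdo2 was 0.52 lower, and in DR-AL against DR Haao fell by 1.44 where Tdo2 rose by 0.94. Kynu, kynureninase, was 0.51 higher and Afmid 0.93 lower in DR-AL than in AL. Of 14 genes tested for serine, glycine, threonine and histidine, 4 were higher and 1 lower in DR, and 3 higher and 4 lower in DR-AL. Sdsl, a close relative of Sds, was higher in DR-AL than in AL (1.31, 834 counts against 340), where Sds was at -0.26 and not called. Of 21 genes for branched-chain amino acids, lysine and proline, 2 were higher and 5 lower in DR and 1 higher and 9 lower in DR-AL, with Aass at 0.88 and Prodh at -1.26 in DR-AL against AL.

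**Figure D3:**
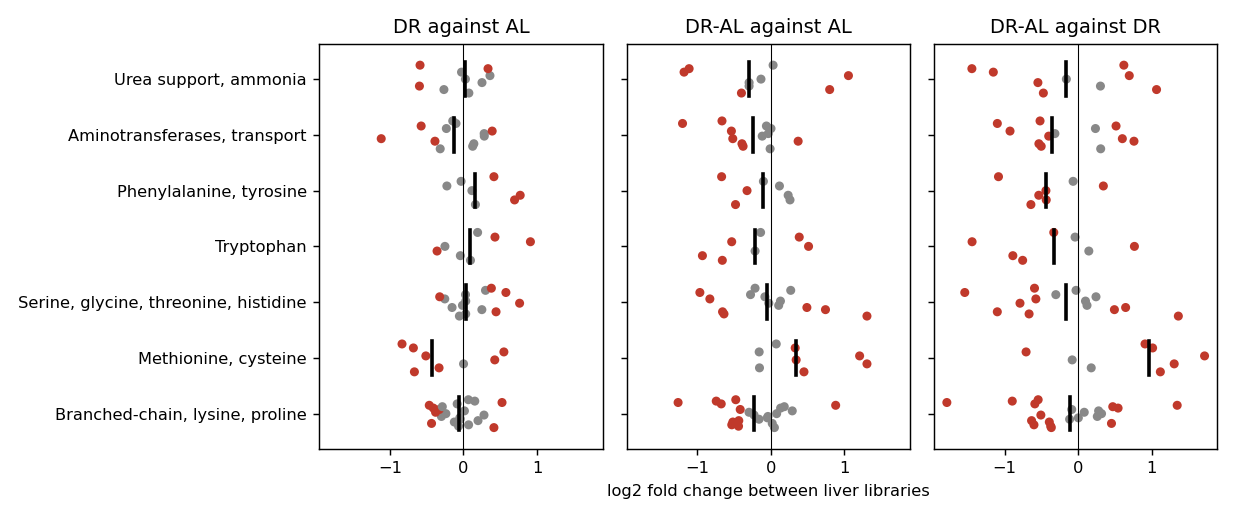
Log2 fold change (horizontal axis) between liver libraries for the genes of 7 lists (rows) whose mean count was 100 or more, 1 point per gene, called genes in red, others in grey, and a black line at the median of the points shown. The methionine and cysteine row has its median left of 0 for DR against AL (-0.42) and right of 0 for DR-AL against AL (0.34).

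Among 10 regulators of these pathways, 2 were higher and 2 lower in DR liver. Beside them, 28.0% of all genes were called, and 37.4% of those whose mean count was 1000 or more. That count does not set the regulators apart. Ppargc1a, a coactivator of fasting metabolism, was higher (0.74, 430 counts against 292), and Creb3l3, a liver transcription factor, was lower (-0.74), and 0.86 higher in DR-AL than in DR. Atf4, which answers amino acid shortage, fell by 0.67 from DR to DR-AL. Other lists moved between the same liver libraries, and their part in the results was not tested. Their counts stand beside 28.0% of all genes called in DR against AL and 30.9% in DR-AL against AL. Of 10 clock genes, 6 were higher and 2 lower in DR, and 3 higher and 5 lower in DR-AL, with Per3 at 690 counts under AL, 1250 under DR and 73 under DR-AL, and Arntl at 64, 7 and 211. Of 8 markers of pericentral hepatocytes, Glul and Cyp2e1 among them, none was higher and 5 were lower in DR-AL than in AL, and 1 was higher and 2 lower among 6 periportal markers. Some markers of each zone, such as Glul (pericentral) and Sdsl (periportal), are also in the lists above, so these counts are not separate from them. Of 7 macrophage markers found, 5 were lower in DR, and their sum was 181 CPM under AL, 129 under DR and 154 under DR-AL.

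The same 9 genes were then read in epididymal fat, a tissue not known for a full urea cycle. There the AL library stands apart in its hepatocyte markers. The 9 hepatocyte markers with counts summed to 5183 CPM in AL fat, 55.7 in DR fat and 12.0 in DR-AL fat, and the 9 genes of amino acid breakdown to 2790, 66.1 and 55.3 CPM. All 9 were lower in DR than in AL fat, beside 10.4% of 20382 genes lower and 45.6% called in either direction, with a median of -6.36 on the log2 scale (-7.79 to -2.56). All 9 were also lower in DR-AL than in AL fat, beside 11.9% lower and 57.9% called, with a median of -7.98. These counts rest on the AL library, in which the hepatocyte markers move with them, and the part of those markers in the result was not tested. Between DR-AL and DR fat, a comparison that does not use the AL library, none was higher and 6 were lower, beside 13.3% lower and 51.6% called. The hepatocyte markers moved there too, with all 9 that had counts lower in DR-AL, by a median of -2.43 (Ttr -3.85, Apoc3 -0.98). The share of all genes that was lower in fat changed with the scaling. With DESeq size factors it was 16.6% for DR against AL, 24.7% for DR-AL against AL and 18.6% for DR-AL against DR, with TMM factors 18.2%, 31.6% and 23.6%, and by fold alone in FPKM with a pseudocount of 0.1 it was 54.0%, 66.0% and 56.5%. Under the DESeq and TMM scalings 9, 9 and 6 of the urea cycle and amino acid genes were again lower. The median log2 difference of all genes tested in fat was 0.23, 0.39 and 0.28 with totals.

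Cps1 had 27547 counts in AL fat, 108 in DR and 23 in DR-AL, 222-fold lower in DR than in AL. Otc had 2099, 13 and 1 counts, Arg1 7169, 73 and 29, and Tat 7188, 76 and 19. Tdo2 had 9166, 98 and 51 counts, Agxt 863, 6 and 2, and Sds 955, 11 and 9. In these 7 genes the DR and DR-AL libraries kept few counts, and the AL library was at least 75.6-fold above DR in CPM. Ass1 and Asl differed. Ass1 had 12958 counts under AL, 355 under DR and 307 under DR-AL fat, 31.8-fold lower in DR. Asl had 5192, 768 and 1071 counts, 5.89-fold lower in DR, and on the FPKM scale it was the most abundant of the 9 in both DR and DR-AL fat.

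Set against AL liver, the 9 genes stood in AL fat at a median of 16.2% of their liver CPM, from 11.8% (Agxt) to 29.8% (Cps1), and the hepatocyte markers at 12.0%, from 7.98% to 17.7%. These percents depend on the scaling, and in AL fat the medians of genes and markers were 7.71% and 5.73% with DESeq size factors, 8.05% and 5.99% with TMM factors, and 5.54% and 3.78% in FPKM. With totals, in DR fat the median of the 9 was 0.189% and that of the markers 0.114% (0.0951% to 0.328%). In DR-AL fat it was 0.0628% and 0.0180% (0.0124% to 0.166%). Cps1, Asl and Sds were above the whole range of the markers in AL fat. Ass1, at 0.554% in DR and 0.400% in DR-AL fat, and Asl, at 3.48% and 4.05%, lay above it in both of the other fat libraries. Asl was 30.6 times the markers' median in DR fat and 224 times in DR-AL fat, and Ass1 4.88 and 22.2 times. A scaling of whole libraries cancels in these factors by construction. Not every gene was above the markers' median, since Agxt was at 0.977 times it in AL fat, Otc and Agxt at 0.811 and 0.827 times in DR fat, and Otc at 0.328 times in DR-AL fat.

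**Figure D4:**
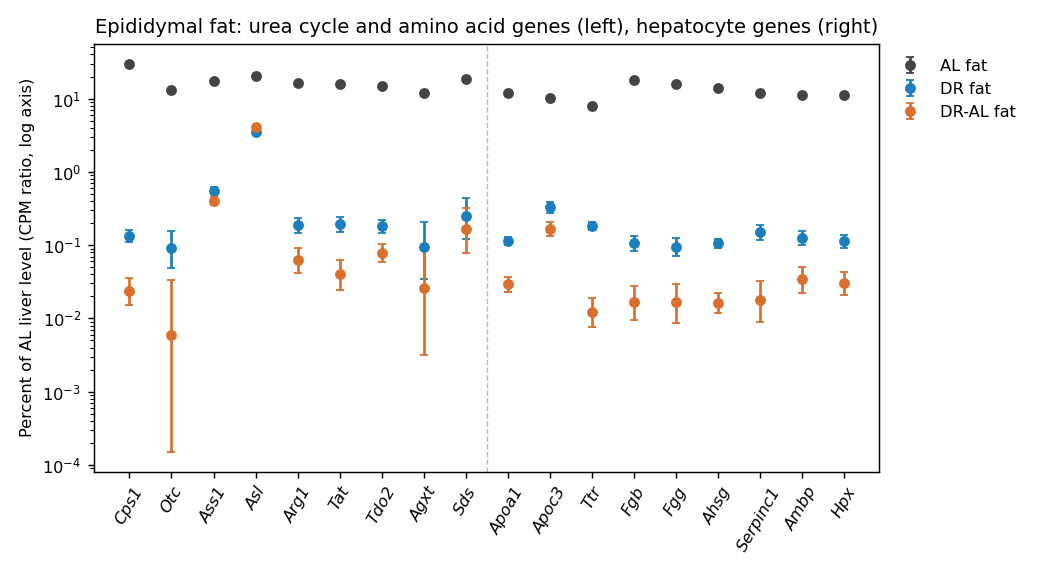
Level in each fat library as a percent of the AL liver level (vertical axis, log scale) for the 9 genes left of the dashed line and 9 hepatocyte markers right of it, with 95% counting intervals as bars where they exceed the point. AL fat lies near 16.2% for the genes and 12.0% for the markers, and Ass1 and Asl lie above all markers in DR and DR-AL fat.

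Other markers moved in fat as well. The testis germ cell markers summed to 3.47 CPM in AL fat, 497 in DR and 2489 in DR-AL fat, and all 7 were higher in DR and again higher in DR-AL. The epididymis markers summed to 847, 3057 and 4858 CPM, of which Crisp1 alone made up 846, 2802 and 4584. All 8 were higher in DR than in AL fat, but from DR to DR-AL 3 were higher and 5 lower, Lcn8 from 1003 counts to 5 and Rnase10 from 603 to 24, and their median fell from 27.7 to 8.75 CPM. The adipocyte markers summed to 41248, 34992 and 28102 CPM, of which Fabp4 alone made up 17582, 12313 and 10570. In DR against AL fat, Adipoq, Cidec and Fabp4 were lower, Retn was higher and the other adipocyte markers were not called. In DR-AL against AL fat, all but Cidec and Cfd were lower, Retn included (log2 difference -1.02), and Cidec and Cfd were not called. In the liver libraries the germ cell and epididymis sums were at most 1.27 CPM. Their part in the levels of Asl and Ass1 in fat was not tested.

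In colon the 9 genes summed to 128 to 170.0 CPM, and Tat took the largest share of these counts, at 101 CPM under AL, 77.4 under DR and 72.9 under DR-AL. Otc, which is also known in the intestine, stood at 22.4, 21.4 and 13.1 CPM. In DR against AL, Ass1 was higher (559 counts against 316, ratio 1.41) and Tat lower, 2 of 9 beside 19.7% of all genes. In DR-AL against AL, Otc, Arg1 and Tat were lower, 3 of 9 beside 14.3%. Arg1 rested there on 35 counts in AL and 3 in DR-AL, a ratio of 0.0909 whose log2 interval ran from -5.81 to -1.79. In DR-AL against DR, Cps1, Otc, Ass1 and Arg1 were lower, 4 of 9 beside 14.5%.

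In the brain Ass1 and Asl took the most counts of the 9. In hypothalamus Ass1 stood at 113, 110 and 104 CPM in AL, DR and DR-AL, and Asl at 28.4, 30.7 and 29.5 CPM, and neither was called. The other 7 had at most 34 counts in a hypothalamus library. Tdo2 was lower there in both comparisons with AL, 1 of 9 beside 7.05% and 15.1% of all genes, with 24, 8 and 9 counts. In hippocampus Ass1 stood at 31.0, 28.9 and 26.8 CPM, Asl at 10.9, 10.8 and 12.6 CPM and Tdo2 at 8.89, 8.13 and 6.32 CPM. None of the 9 was called there in DR against AL, beside 4.03% of all genes, and Tdo2 and Arg1 were lower in DR-AL against AL, 2 of 9 beside 6.15%. Arg1 was listed with 7 counts in AL and 0 in DR-AL hippocampus, and the 3 counts that a 0 allows leave that difference undecided at this depth.

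**Figure D5:**
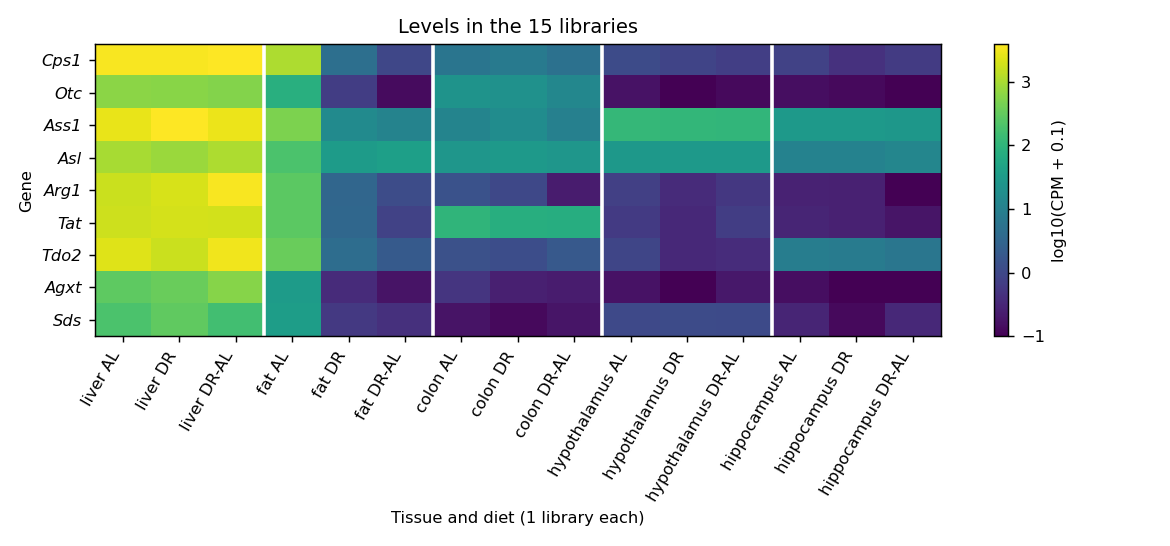
Level of the 9 genes (rows) in the 15 libraries (columns, by tissue and diet), as log10(CPM + 0.1) in colour. The liver columns are bright for all 9, AL fat is the only other column where all 9 are above 30 CPM, and the Ass1 and Asl rows stay visible in every tissue.

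Over the 15 libraries, the genes that were not among the 9 but whose centred log2(CPM + 1) lay nearest to the mean profile of the 9 were Baat, at a Euclidean distance of 1.09, Ugt2b1 (1.23), Cyp2c67 (1.38), Cpb2 (1.51) and Ugt2a3 (1.59), among the 11696 genes whose mean was 10 CPM or more. They are known as liver genes of bile acid conjugation, glucuronidation, drug oxidation and clotting control. Of the 9, Agxt (1.67) and Sds (3.10) were nearest to their common profile and Tat (7.04) the farthest. Baat stood at 48.4 CPM in AL fat, 0.263 in DR and 0.0731 in DR-AL fat. It was picked by its profile over these same libraries, so this pattern is no separate result.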

How the data were processed

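The authors deposited 1 table with a raw count and an FPKM value for each of 33603 loci in each of 15 libraries, and all 30 value columns were used. Per the methods, reads were trimmed, aligned to mm10 with strand kept, and duplicates were removed, while the submitters' processing notes name mm9 and DESeq2. Of the 9 genes, 1 overlaps its GRCm38 position in the table, so positions are given as in the table. The deposited counts are whole numbers without normalization, and the scaling of the deposited FPKM values between libraries is not given in the sources used here.

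Counts on named loci were scaled by their total. The Z test of the methods was run on all genes with at least 1 count in a tissue, and log2 values use a pseudocount of 0.5 on counts scaled to the mean total. Ratios carry exact Clopper-Pearson 95% intervals. Scripts were run in Python 3.11.15 and R 4.3.3 with edgeR 4.0.16. The tests were run on simulated counts drawn with the spread that each test assumes. That does not check them against the unknown spread between pools. Genes other than the 9 were named as the largest rise and fall of a list among called genes whose mean count was 100 or more, and those nearest in profile by Euclidean distance. Mat1a, Ctso, Plbd2, Per3, Arntl, Cyp2e1, Ttr, Apoc3, Crisp1, Lcn8, Rnase10, Fabp4, Adipoq, Cidec, Cfd and Retn were named after their values were seen. The 9 genes and the lists were chosen with earlier results of these data known. The real-time PCR and bisulfite measurements were not analysed here. Alternatives were other scalings, filters, fold limits, FPKM, and the edgeR exact test with an assumed or estimated spread.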

Additional observations from a re-analysis of the deposited data

Results flagged for a closer look

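Some genes were called in opposite directions in 2 tissues under the same contrast, with more than 3 counts in every library involved. None of these differences between tissues was tested, and each rests on 1 library per tissue and diet. In DR against AL, the log2 change in liver exceeded that in fat by 5.47 for Ass1, 7.21 for Agxt and 6.77 for Sds. Ass1 in fat also lay -5.48 from its change in colon. In DR-AL against AL, the change in liver exceeded that in fat by 9.06 for Arg1 and 7.96 for Tdo2. All 6 of these involve the AL fat library, where the hepatocyte markers stood at 12.0% (median) of the level in AL liver with totals, 5.73% with DESeq size factors, 5.99% with TMM factors and 3.78% in FPKM. Tdo2 in DR-AL against AL also differed between liver and hypothalamus, by 1.86, and between liver and hippocampus, by 0.91. The hypothalamus value rests on 24 counts in AL and 9 in DR-AL.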

How the results depend on the processing

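No paired analysis was possible because each tissue and diet has 1 library and no replicate numbers. Over the alternatives, 236 of 297 gene values in liver and 271 of 297 in fat kept their side of the threshold, and their direction where called. Many of the liver values kept were called in neither setting, and the stricter alternatives could add few calls. These totals therefore do not measure how stable the calls were. A change of sign in a value that was called in neither setting was not counted. The values that reversed with a call were 2 of Asl in DR-AL against DR fat. They turned from 0.22 (not called) to -0.62 and -0.54 in FPKM with pseudocounts of 0.1 and 1. The call was lost in 54 and gained in 7 of the liver values, and in 22 and 2 of the fat values. With a spread between pools assumed in the edgeR exact test, calls in liver became fewer. At a coefficient of variation of 0.1 they were 0 of 9 for DR against AL (3 at an unadjusted p under 0.05), 2 for DR-AL against AL (Arg1 and Agxt) and 4 for DR-AL against DR, beside 8.85%, 10.6% and 22.8% of all genes. At 0.2 they were 0, 0 and 0 (0, 2 and 2 unadjusted), beside 1.78%, 1.59% and 4.75%, and with the estimated 0.312, which includes any effect of diet, again 0, 0 and 0 (0 in each unadjusted), beside 0.425%, 0.402% and 0.850%. At a fold of at least 2 they were 0, 2 and 0 by the Z test, beside 8.31%, 8.34% and 14.8% of all genes. In fat the estimated 0.762 left 0 calls for DR against AL (8 unadjusted), 7 for DR-AL against AL and 0 for DR-AL against DR (0 unadjusted). The shares of all genes were 0.00491%, 4.94% and 0.00491%. Spreads of 0.1 and 0.2 left all 9 in both comparisons with AL, which share the AL fat library. Beside them were 28.6% and 17.0% of all genes for DR against AL, and 43.7% and 28.3% for DR-AL against AL. The median percent of AL liver level in fat was 16.19 under AL, 0.1893 under DR and 0.06275 under DR-AL with totals, 7.705, 0.07858 and 0.0236 with DESeq size factors of the 15 libraries, 8.049, 0.08082 and 0.02516 with TMM factors, and 5.542, 0.04183 and 0.009948 in FPKM. The ratio of the median of the 9 genes to that of the hepatocyte markers, which a scaling of libraries cannot move, was 1.34, 1.67 and 3.48 with counts and 1.47, 1.83 and 5.10 in FPKM. The spread between mice cannot be estimated from pooled RNA, and counts of 1 to 13 in fat limit Otc, Agxt and Sds.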
